A study of Homo sapiens with 18 samples.

Results

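A set of 249 regions of open chromatin was called in PC9 cells before the drug, was all but absent 12 h after erlotinib was added, and was not called in any library of the cells that survived 8 days of it. They were picked out of 79483 regions (0.313%) by their presence in the peak lists of 18 ATAC-seq libraries. Peaks that shared at least 1 bp were joined into a region, and a library held a region when at least 1 of its peaks lay in it. A region belonged to the set when all 3 libraries of unsorted PC9 and at least 4 of the 6 libraries of sorted DMSO cells held it, at most 1 of the 6 libraries of sorted erlotinib cells did, and none of the 3 libraries of surviving cells did. The word closed is used below for a region with no called peak, which is less than a measurement of closed chromatin, because a weak peak can also be missed at low depth and the depth of these libraries is unknown.

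PC9 is an established human lung adenocarcinoma line that carries an activating EGFR mutation and depends on the receptor for growth. Erlotinib blocks the kinase activity of that receptor. The PC9 group was unsorted and labelled DMSO, the vehicle, with no time. The DTP (drug-tolerant persister) group was what remained alive after 8 days in 1 µM erlotinib. The groups ALDH_Low_DMSO and ALDH_High_DMSO were PC9 cells kept for 12 h in DMSO, and the groups ALDH_Low_Erl and ALDH_High_Erl were cells kept for 12 h in 1 µM erlotinib. All 4 of these were then separated by flow cytometry on Aldefluor, a dye that reports aldehyde dehydrogenase activity. Cells were sorted after treatment, so the ALDH-high cells of the 2 treatments may differ in origin, and no sort is named for PC9 and DTP. In bulk libraries, a region that closes within cells and a loss of the cells in which it was open cannot be told apart. Each of the 6 groups had 3 libraries, lettered a to c, and nothing in the labels says whether they came from separate cultures. All cells were frozen and thawed before the assay.

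In ATAC-seq a transposase cuts and tags DNA that is not wrapped in nucleosomes, so peaks mark promoters, enhancers and other elements at which bound factors keep nucleosomes away. EGFR signals through the RAS-MAPK and PI3K cascades to transcription factors that bind such elements. Persister cells are known as a slowly cycling, reversible state that outlasts a targeted drug without a resistance mutation, and chromatin changes are a known part of it. Gene annotation and sequence of hg19, the build of the coordinates below, were not used here, so the regions are identified by position alone and no gene is named.

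The regions were chosen by the peak calls of all 18 libraries. Their presence in PC9, their absence from DTP and their near absence after 12 h of erlotinib are therefore a description, for which no test is given. As background, 3.68% of the 65904 regions called in any PC9 or DTP library were held by all PC9 and no DTP library, against all 249 here by choice. Regions lost after 12 h in ALDH-low cells, held by all 3 DMSO and no erlotinib library, made up 0.887% of 52872, and 57 of the 249 were among them. For ALDH-high cells the background was 0.998% of 56812, and the set held 119 of those. Regions held by all 6 sorted DMSO libraries and no sorted erlotinib library made up 0.160% of 64525, and 26 of the 249 were of this kind.

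The list lengths behind these calls ran from 26225 to 45241 peaks. They were shortest in ALDH_Low_DMSO (26225 to 26438 peaks), followed by ALDH_High_DMSO (30336 to 32819). PC9 lists had 39394 to 41831 peaks, DTP lists 42204 to 45241, and erlotinib lists 32583 to 40670 in ALDH-low and 34317 to 40710 in ALDH-high cells. Each list of treated cells was longer than each list of sorted DMSO cells, except that ALDH-low erlotinib library c (32583 peaks) was shorter than ALDH-high DMSO library a (32819).

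**Figure D1:**
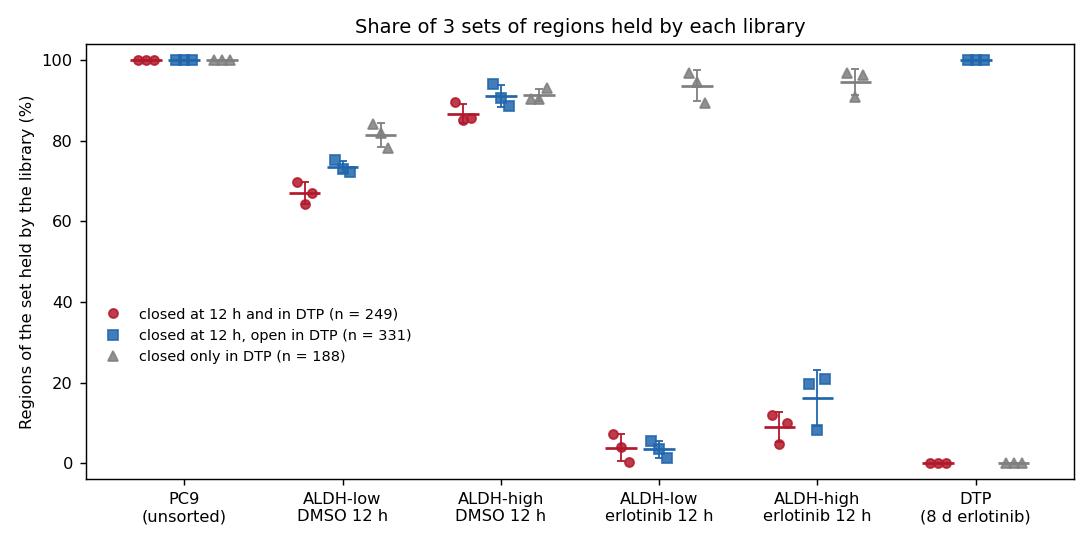
Share of each set of regions (%) held by each library, for the 6 groups; points are libraries, bars the mean and SD of 3. Of the 249 regions closed at 12 h and in DTP, ALDH-low DMSO libraries held 64.3% to 69.9%, ALDH-high DMSO libraries 85.1% to 89.6% and erlotinib libraries at most 12.0%, and of the 188 regions closed only in DTP erlotinib libraries held 89.4% or more. Presence in PC9 and DTP and the high or low shares in erlotinib libraries follow from how the sets were chosen.

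The regions that defined the set most clearly were those held by every DMSO library and by no library after the drug. Each peak carried a score from the authors' peak caller, and the score percentile is the percent of a library's own peaks that scored no higher, so that 90 means near the top of that list. Regions were ranked by this percentile in the weakest of their 3 PC9 libraries. The first was on chromosome 6 (chr6:7644371-7645466, 1096 bp). Its percentiles were 89.3, 92.8 and 84.8 in PC9, 65.1, 57.1 and 56.8 in ALDH-low DMSO and 72.6, 78.1 and 56.4 in ALDH-high DMSO libraries. All PC9 values stood above all DMSO values, and none of the 9 libraries of treated cells had a peak there. The nearest DTP peak lay 2540 bp away.

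The next such region, ranked 3, was on chromosome 3 (chr3:158547761-158548866, 1106 bp). Its percentiles were 82.4, 77.7 and 77.1 in PC9, and in sorted DMSO cells they spread from 14.4 to 40.3 in the ALDH-low and from 9.64 to 55.6 in the ALDH-high libraries. It was thus a strong peak in unsorted cells and a weak to middling one in both fractions. Here the nearest DTP peak was 27046 bp away and the nearest region held by all 18 libraries 26965 bp away, so that no called peak of persisters lay close by. The region ranked 6, on chromosome 20 (chr20:62533750-62534897, 1148 bp), had percentiles of 83.2, 73.1 and 76.2 in PC9 and only 22.4, 42.5 and 3.50 in ALDH-low DMSO libraries. In ALDH-high DMSO libraries they were 67.2, 29.0 and 26.9, and library a was the highest of the 6.

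Chromosome 6 supplied 4 of the 26 regions held by all DMSO and no treated library, and 4 of the 15 highest-ranked. The region at chr6:27569192-27570907 (1716 bp, rank 10) had even values, 68.8, 75.05 and 76.4 in PC9 and 58.1, 55.1 and 58.6 in ALDH-high DMSO libraries, against 43.1, 53.8 and 28.3 in ALDH-low DMSO libraries. The region at chr6:108994374-108995546 (1173 bp, rank 12) varied more in the ALDH-low fraction, with 25.1, 44.0 and 68.1, than in the ALDH-high fraction, with 55.6, 54.5 and 66.4. On chromosome 16, the region at chr16:89382022-89383438 (1417 bp, rank 11) had 70.8, 68.3 and 81.9 in PC9, 56.1, 32.3 and 8.96 in ALDH-low DMSO and 35.7, 63.1 and 52.4 in ALDH-high DMSO libraries. These regions were called in 9 of 9 untreated and 0 of 9 treated libraries, but in sorted cells their peaks ranged from near the floor of a list, at 3.50, to 78.1.

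Other regions of the 26 were weaker in PC9. They included chr1:51800077-51801128 (rank 38), with PC9 percentiles of 61.7, 56.5 and 68.9, and chr5:175972426-175974012 (rank 47), with 54.1, 73.9 and 62.3. The region at chr1:45268626-45270187 (rank 57) had 55.5, 51.1 and 84.0 in PC9, and its DMSO values, 42.4 to 62.1, were close to the lower PC9 values. The region at chr16:19016676-19017820 (rank 82) went further, with 44.9, 45.4 and 79.97 in PC9 and 66.4 and 69.2 in ALDH-high DMSO libraries a and b, above 2 of the 3 PC9 values. The 26 lay on 13 chromosomes, had a median width of 1120 bp, and reached down to rank 233, at chr11:59323605-59325613, where PC9 library a had a percentile of 7.24.

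**Figure D2:**
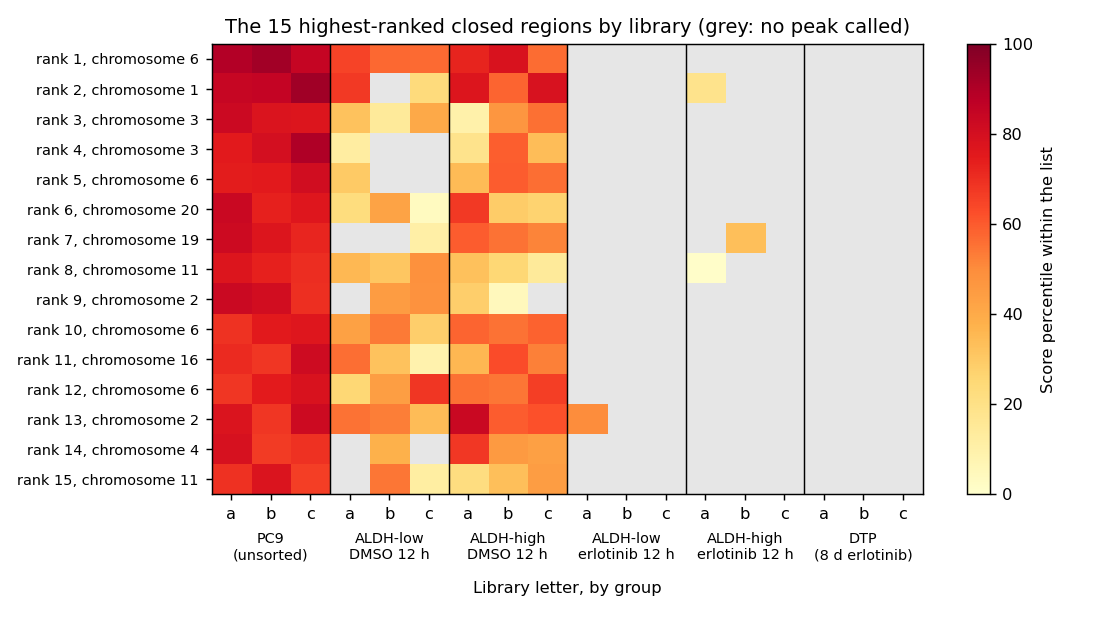
Score percentile within the library's own list (colour) for the 15 highest-ranked regions (rows) in the 18 libraries (columns, by group and letter); grey means that no peak was called. PC9 columns are the darkest, sorted DMSO columns are paler with gaps mainly in the ALDH-low libraries, and treated columns are grey apart from 4 stray peaks.

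Regions that missed some DMSO libraries or kept a stray peak after the drug filled the rest of the highest ranks. The region ranked 2, on chromosome 1 (chr1:224245490-224246679, 1190 bp), had percentiles of 84.2, 84.9 and 93.2 in PC9 and 77.3, 57.9 and 78.7 in ALDH-high DMSO libraries. It had no peak in ALDH-low DMSO library b, and it kept a weak one, at the 18.4th percentile, in ALDH-high erlotinib library a. The region ranked 4, on chromosome 3 (chr3:185525244-185526220, 977 bp), had 75.2, 79.98 and 89.98 in PC9 and was called in a single ALDH-low DMSO library, at 12.4, and in all 3 ALDH-high ones, at 18.6, 59.1 and 33.8. The regions ranked 5 (chr6:148467579-148468613), 7 (chr19:46071712-46072790) and 14 (chr4:156354413-156355644) were likewise held by 1 ALDH-low and all 3 ALDH-high DMSO libraries. Of the 15 highest-ranked, 14 were held by all 3 ALDH-high DMSO libraries and 8 by all 3 ALDH-low ones.

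The exception among the 15 was the narrowest region of the whole set, at chr2:207779723-207780382 (660 bp, rank 9). Its percentiles were 82.9, 80.6 and 69.6 in PC9, 44.6 and 48.2 in ALDH-low DMSO libraries b and c, and 28.1 and 4.62 in ALDH-high DMSO libraries a and b. Here the ALDH-low fraction had the stronger peaks. The region at chr2:224717664-224719014 (1351 bp, rank 13) kept the strongest stray peak of the set. Its ALDH-low erlotinib library a reached the 49.8th percentile, near the 55.1, 52.9 and 34.4 of ALDH-low DMSO libraries, whereas the other 5 erlotinib libraries and all DTP libraries had none.

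In 13 of these 15 regions every PC9 percentile stood above every DMSO percentile. Ranking by PC9 strength favours that outcome. Over the whole set it held for 72 of 249 regions (28.9%), beside 16.1% of all 22995 regions that were open at the start, meaning held by all 3 PC9 and at least 4 of 6 sorted DMSO libraries. Averaged over libraries, 218 of the 249 (87.6%) ranked higher in PC9 than in the DMSO lists that held them, by a median of 18.3 percentile points, beside 77.9% and 8.36 points for all regions open at the start. PC9 was not sorted and its lists were longer, and the part of either in this difference was not tested.

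Across the set, peaks were weak already before the drug. The median percentile was 49.0 ± 1.80 in PC9 lists, 25.8 ± 2.10 in ALDH-low DMSO lists and 30.8 ± 2.14 in ALDH-high DMSO lists (mean and SD of 3 library medians here and below, each over the regions that the library held). All regions open at the start had 71.1 ± 0.867, 60.2 ± 0.147 and 64.2 ± 1.19 in the same lists. The 331 regions that closed at 12 h in the same way but were held by all DTP libraries stood between them in PC9, with 64.5 ± 1.49, and had 32.9 ± 2.51 and 40.6 ± 0.902 in ALDH-low and ALDH-high DMSO lists. The 188 regions held by at least 5 of the 6 erlotinib libraries and closed only in DTP had 51.0 ± 2.16 in PC9, close to the 249, but more in sorted cells, 36.6 ± 0.273 in ALDH-low and 44.5 ± 1.20 in ALDH-high DMSO lists. Both of those sets share the PC9 and DMSO libraries with the 249, and no test of the differences is given because the same libraries chose all 3 sets.

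**Figure D3:**
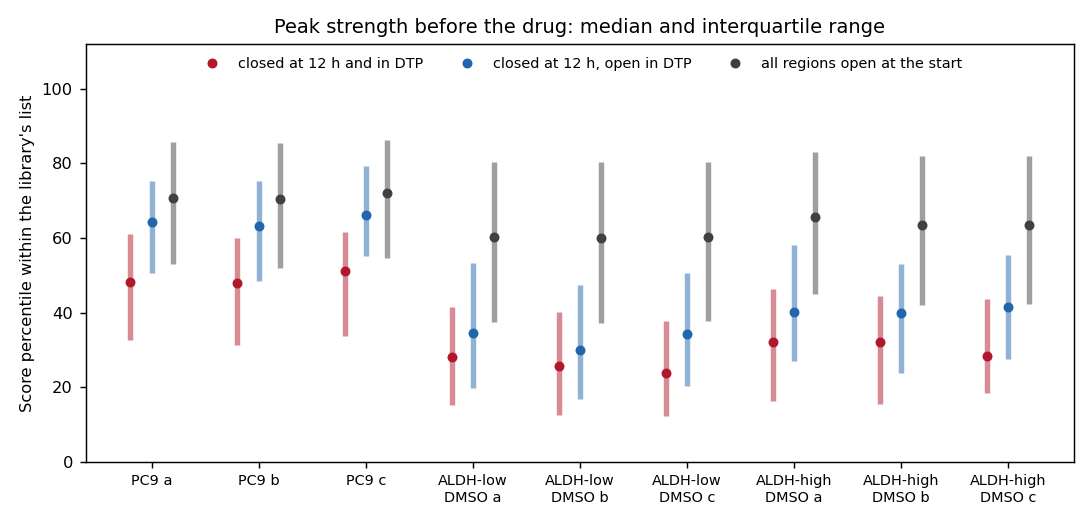
Score percentile within the list in each PC9 and sorted DMSO library, as the median (point) and interquartile range (bar), for regions closed at 12 h and in DTP, regions closed at 12 h and open in DTP, and all regions open at the start. In each of the 9 lists the medians rise in that order, with 49.0 and 71.1 as the means of the PC9 medians of the first and last.

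The share of regions without a call at 12 h and in DTP was lower where peaks were stronger in PC9. Of 604 regions open at the start with a mean PC9 percentile under 25, 25 belonged to the set (4.14%). The share was 2.75% of 4362 regions between 25 and 50, 1.11% of 8460 between 50 and 75, and 0.105% of 9569 at 75 or more. Regions closed at 12 h and open again in DTP did not follow the same order: they made up 0.662%, 1.35%, 2.23% and 0.826% in these 4 ranges. Those closed only in DTP made up 3.31%, 1.83%, 0.757% and 0.251%. A weak peak lies nearer to the calling floor and can be lost to a smaller change. The part of this in the shares was not tested, and they describe calls and not the size of a change in accessibility.

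Among themselves the 249 spanned mean PC9 percentiles from 7.51 to 88.9, with a median of 47.0. The SD of a region over the 3 PC9 libraries had a median of 11.2 points, so neighbouring ranks are not distinct. Regions held by more DMSO libraries were also stronger in PC9. The 137 held by 4 of 6 had a median mean PC9 percentile of 43.5, the 71 held by 5 had 47.4, and the 41 held by all 6 had 57.5. Over these 41, mean PC9 and mean DMSO percentiles were correlated across regions (Pearson r = 0.575, Spearman rho = 0.590), a description only, since all regions come from the same libraries. At the lower end, 26 of the 249 had a PC9 library under the 10th percentile. The lowest-ranked, on chromosome 8, was weak in all 3, with 12.9, 0.216 and 9.37. The next were chr4:119203070-119204615, with 45.7, 51.0 and 0.478, and chr7:75735302-75736172, with 0.511, 51.0 and 48.8. In these 2, 1 PC9 peak lay at the very floor of its list and the other 2 near the middle.

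After 12 h of erlotinib, 153 of the 249 regions had no peak in any sorted library and 96 had a peak in 1. Among all 875 regions open at the start with at most 1 erlotinib call, 49.3% had that call, beside 38.6% here. The 96 stray peaks had a median percentile of 13.5, a lowest of 0.119 and a highest of 49.8, so all lay in the lower part of their lists, some of them near the middle. ALDH-high libraries held 67 of them (69.8%) and ALDH-low libraries 29. Among all 431 regions open at the start with 1 erlotinib call, ALDH-high libraries held 328 (76.1%), so the split was not a feature of the set. By library, ALDH-high a, b and c held 30, 12 and 25, and ALDH-low a, b and c held 18, 10 and 1. The fewest came from ALDH-low library c, whose list was also the shortest of the 6 with 32583 peaks. The most came from ALDH-high library a, whose list was the longest with 40710. Between these ends the order differed. ALDH-low library b held 10 with 36458 peaks, and ALDH-high library b held 12 with 34317. ALDH-low library a held 18 with 40670, and ALDH-high library c held 25 with 40600. The part of list length in these numbers was not tested.

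**Figure D4:**
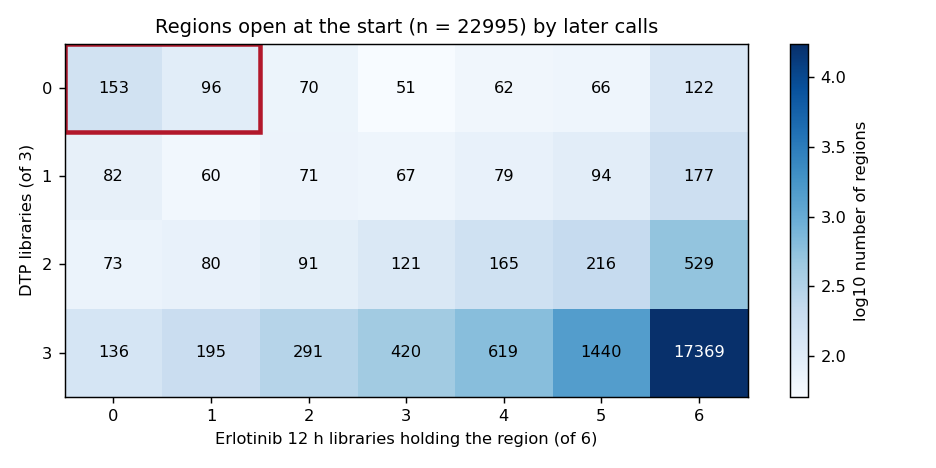
Number of regions open at the start (22995 in all) by how many of the 6 erlotinib 12 h libraries (columns) and of the 3 DTP libraries (rows) held them, coloured by log10 of the number. The red frame holds the 153 and 96 regions of the set, at one corner. The opposite corner holds the 17369 regions held by all erlotinib and DTP libraries, of which 14070 were held by all 18 libraries.

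With no DTP call, 153 regions had 0 erlotinib calls, 96 had 1, 70 had 2, 51 had 3, 62 had 4, 66 had 5 and 122 had all 6. With at most 1 erlotinib call, 249 had no DTP call, 142 had 1, 153 had 2 and 331 had all 3. Both of these series were lowest between their ends. Among regions with 2 or 3 DTP calls, by contrast, numbers rose with every further erlotinib call, from 73 to 529 and from 136 to 17369. By the weakest PC9 library, stronger peaks than any in the set lay just outside it. The region at chr3:149107925-149109317 had PC9 percentiles of 98.0, 87.8 and 90.3 and DMSO percentiles from 48.0 to 88.9, and was left out for a peak at a percentile of 15.03 in DTP library c. The region at chr5:64061430-64062872 had 96.2, 96.5 and 90.7 in PC9 and was left out for 2 erlotinib peaks, at 23.7 in ALDH-low library a and 12.2 in ALDH-high library c. The 142 regions with 1 DTP call had that call at a median percentile of 13.6, as low as the stray erlotinib peaks. Another 173 regions missed the rule only by being held by 3 of the 6 DMSO libraries, and 35 only by 1 missing PC9 library.

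ALDH fraction was not part of the rule, which counted the 6 DMSO libraries together. Under DMSO, ALDH-high libraries a, b and c held 223, 212 and 213 of the 249 regions, and ALDH-low libraries 174, 160 and 167. The fractions did not overlap, with means of 86.7% ± 2.44 and 67.1% ± 2.81 (SD, n = 3 libraries each). Neither did they over all regions open at the start, with 95.9% ± 1.04 and 90.0% ± 0.226. For the 331 regions closed at 12 h and open in DTP they were apart too, with 91.0% ± 2.74 and 73.5% ± 1.55. The lack of overlap was thus not particular to the set. More ALDH-high than ALDH-low libraries held 115 of the regions (46.2%, beside 19.6% of the 24797 regions held by at least 4 DMSO libraries), and 26 (10.4%, beside 6.09%) showed the reverse.

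Against regions held by the same number of DMSO libraries the excess was small. All 3 ALDH-high and 1 ALDH-low library held 64 of the 249 (25.7%, beside 6.45% of the 24797), and 6 (2.41%, beside 1.14%) showed the reverse. Among the 137 held by exactly 4 libraries, these were 46.7% and 4.38%, beside 42.2% and 7.47% of all 3790 such regions. Of the 71 held by 5, the missing library was an ALDH-low one in 51 (71.8%), beside 72.7% of 4500. These shares are near the background and are not a result about the set. ALDH-high DMSO lists were also the longer ones. When every list was cut to its 26225 best peaks by score, the difference of 19.7 points between the fractions became 6.03 (85.8% ± 1.85 against 79.7% ± 1.37), in a set that had itself changed to 553 regions.

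The regions were narrow and, with few exceptions, single peaks in one place. Their median width was 1071 bp (quartiles 970 and 1201 bp), beside 1089 bp for the regions closed at 12 h and open in DTP, 1237 bp for those closed only in DTP, 1527 bp for all regions open at the start and 1735 bp for those held by all 18 libraries. Joining peaks of more libraries widens a region, so widths of regions with different numbers of holders are not on an equal footing. The peaks themselves had a median width of 784 ± 15.7 bp in PC9 and 804 ± 23.1 and 800 ± 14.4 bp in ALDH-low and ALDH-high DMSO libraries, beside 1018 ± 8.72, 1060 ± 13.3 and 1082 ± 8.19 bp for all regions open at the start. For regions closed at 12 h and open in DTP they were 774 ± 21.1, 766 ± 16.9 and 814 ± 14.4 bp. Those closed only in DTP had 827 ± 6.71, 879 ± 3.69 and 906 ± 21.5 bp. Narrow peaks were thus not particular to the set. The widest of the set were chr5:172740690-172743591 (2902 bp), chr3:189625888-189628123 (2236 bp) and chr11:59323605-59325613 (2009 bp), and only these 3 reached 2 kb. After chr2:207779723-207780382, the narrowest were chr12:93139773-93140501 (729 bp) and chr10:92178562-92179295 (734 bp).

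PC9 and DMSO peaks of a region sat close together, which the joining of overlapping peaks favours. Their centres differed by a median of 39.5 bp, and by at most 200 bp in 246 of the 249 regions. In 245 regions the peaks of all holding libraries shared at least 1 bp, with a median shared stretch over the set of 516 bp. In the other 4 the region was bridged by overlapping neighbours.

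A region that shared any base with a DTP peak could not be in the set, so peaks of persisters lay at a distance by choice. A DTP peak lay within 200 bp of 1 region, within 1000 bp of 24 (9.64%) and within 10000 bp of 149 (59.8%), with a median distance of 8083 bp. For peaks of sorted erlotinib cells outside the region these numbers were 2, 27 and 156, with a median of 6699 bp. The stray erlotinib peaks inside 96 of the regions are left out of them. The closest DTP peak, at 19 bp, flanked chr11:34329392-34330668, a region with PC9 percentiles of 16.5, 44.4 and 33.9. Regions held by all 18 libraries lay within 5000 bp of 25 of the 249 (10.0%), beside 6.92% of the 8925 regions that were open at the start but not held throughout, and the median distances were 36840 and 39433 bp. For regions closed at 12 h and open in DTP the share was 3.93% and the median 64642 bp. For those closed only in DTP they were 11.2% and 32337.5 bp, so nearness to such regions was not particular to the set.

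**Figure D5:**
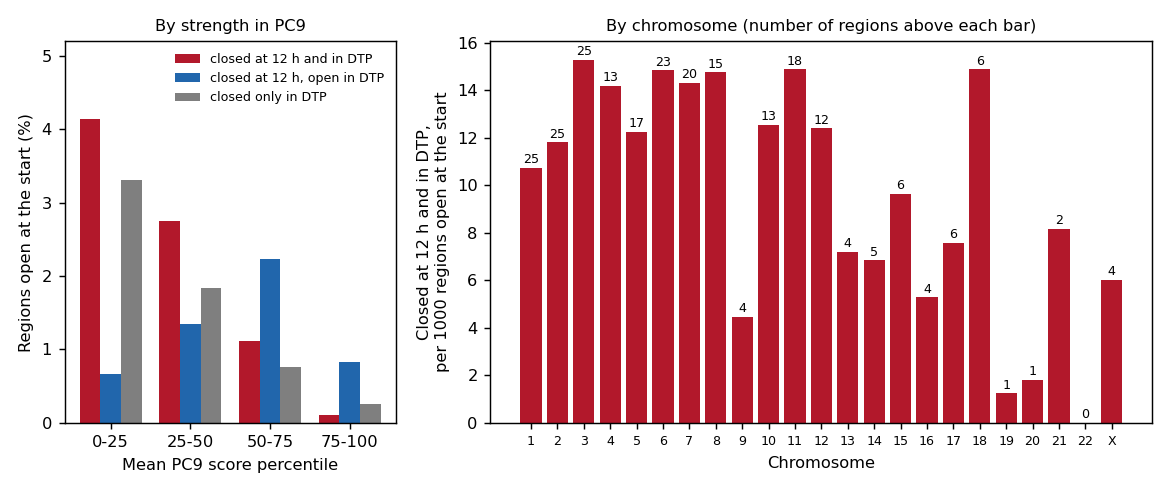
Left, percent of regions open at the start that fell in each set, by mean PC9 score percentile; right, regions closed at 12 h and in DTP per 1000 regions open at the start on each chromosome, with their number above the bar. The share closed at both times falls from 4.14% to 0.105% from the weakest to the strongest range, and chromosomes 19, 20 and 22 have 1, 1 and 0 regions.

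Regions of the set lay on 22 of the 23 chromosomes compared. Chromosomes 1, 2 and 3 held 25 each and chromosome 6 held 23, together 39.4% of the set and 33.2% of the regions open at the start. Per 1000 regions open at the start, the set had 10.8 in all, and 15.3 on chromosome 3. Chromosomes 4, 6, 7, 8, 11 and 18 followed closely, between 14.2 and 14.9. Chromosomes 19, 20 and 22 stood at the other end. With 1768 regions open at the start between them, they held 2 of the set, or 1.13 per 1000, and none lay on chromosome 22. These 2, ranked 7 and 6, were among the strongest in PC9. The 3 chromosomes were singled out after their values were seen, and no test was run. They held 3.52%, 2.39% and 1.78% of the regions open at the start. Of the 331 regions closed at 12 h and open in DTP they held 1, 6 and 2 (0.302%, 1.81% and 0.604%). Of the 188 closed only in DTP they held 0, 3 and 3 (0%, 1.60% and 1.60%). These shares were also below those of the regions open at the start, so a share below that background was not particular to the set. They rest on few regions, and the last, on chromosome 22, was close to the background. The set itself had 0.402%, 0.402% and 0%. Under a mean PC9 percentile of 75, the 3 chromosomes had 0 of the set among 1195 regions open at the start. All other chromosomes had 19.5 per 1000. Chromosome 9 was also low, with 4 of 898.

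Nearly all members stood alone. The median gap between neighbours was 5.28 Mb, and 13 of the 249 lay in 6 groups within 100 kb of each other. A list this short is sparse over the genome and no background is given, so these numbers describe no trait of the set. The pair on chromosome 11 at chr11:116723964-116725186 and chr11:116731977-116732935 was the strongest, with both in the 15 highest-ranked. They were 6790 bp apart with no other called region between them. The first had PC9 percentiles of 77.1, 73.1 and 70.02 and was held by all 6 DMSO libraries, with 35.4, 31.2 and 48.5 in ALDH-low and 32.6, 25.3 and 14.4 in ALDH-high cells. The second had 69.5, 77.5 and 66.4 in PC9 and missed ALDH-low DMSO library a. The nearest region held by all 18 libraries was over 200 kb away from both, at 234896 and 227147 bp. A single stray peak at the 0.840th percentile, in ALDH-high erlotinib library a at the first of the pair, was what remained called.

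The largest group had 3 members on chromosome 6, between chr6:27463162-27464236 and chr6:27569192-27570907, with chr6:27543489-27544476 between them. The middle one was the fourth on chromosome 6 held by all DMSO and no treated library. The stretch held 14 other regions, 3 of which were held by all DTP libraries, so regions that persisters kept lay among those they did not. The first had PC9 percentiles of 40.0, 54.1 and 62.4 and the middle one 47.0, 40.2 and 15.4, both mostly below the 68.8, 75.05 and 76.4 of the last. The pair at chr3:187914863-187915949 and chr3:187980507-187981661 had 3 other regions between its members, none of them held by all DTP libraries. Further pairs lay at chr1:175126873-175128075 and chr1:175187897-175188979, and at chr11:34329392-34330668 and chr11:34360367-34361668, both with regions held by all 18 libraries between their members. The sixth group was a pair on chromosome 8.

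Membership depended strongly on how deep into each list peaks were read. With lists of equal size 553 regions met the rule, 95 of the 249 among them, since 124 no longer had a peak in all 3 shortened PC9 lists and 84 fell below 4 DMSO lists. The lowest score kept was 70 to 70.7 in ALDH-low DMSO, 93.94 to 130.42 in erlotinib and 113.81 to 122.02 in DTP libraries. Equal lists thus also removed peaks of treated cells, whose absence the rule asks for. The part of this in the 553 was not tested. With a score of at least 100, 188 regions met it, and 45 of the 249 did, with 192 falling below 4 DMSO lists. Both settings remove weak peaks by the score that also ranked the regions. The 15 highest-ranked were therefore bound to keep their PC9 peaks, and their survival is no sign of stability. Of these 15, 13 and 11 still met the rule under these settings. Those lost with equal lists were ranks 4 and 9, and ranks 7 and 15 were lost as well at the higher score. A combination counted after seeing the data was stricter. Of the 249, 34 met the rule under both and also when peaks had to cover at least 50% of a region, among them 9 of the 15 highest-ranked and 14 of the 26 held by all 6 DMSO and no erlotinib library.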

How the data were processed

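Each of the 18 ATAC-seq libraries had its own peak list. BWA, MACS 1.4.2 and hg19 are named, per the submitters' processing notes. Not given in the sources used here were trimming, duplicate removal, read shifting, calling parameters and read depth. Each deposited peak carries the authors' score, whose scale is not stated and whose lowest value is 70 in these lists. It served to rank peaks inside a list and to filter them.

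Groups came from the sample titles. Chromosomes 1 to 22 and X were used, and 3 to 7 peaks per library lay elsewhere. Positions count from 1. Regions were built in Python 3.11.15 with numpy 2.4.6, matched the union from bedtools 2.31.1 in all 79483 cases, and the rule was tested on simulated data. No test was run, because the calls of all 18 libraries chose the regions. Regions could be named for being among the 15 highest-ranked, the first 15 held by all 6 DMSO and no erlotinib library, the 3 widest, narrowest or lowest, in a group within 100 kb, or the 5 highest just outside each term. The regions and lists were chosen with earlier results of these data known. Planned gene lists, promoter shares and motifs were not run, since no hg19 annotation or sequence was used here.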

Additional observations from a re-analysis of the deposited data

How the results depend on the processing

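The number of regions stayed within 1.5 times 249 in each of the 18 sets with 1 library left out (253 to 363), and with a score of at least 100 (188), 50% coverage (254), peaks within 100 bp joined (248) or peaks within 200 bp counted (248). Without a DMSO library, 3 of the other 5 were enough. Leaving out a library mostly loosens the rule, so these numbers show no stability of the members. The number moved to 553 with lists of equal size, to 26 when all 6 DMSO and no erlotinib library were required, and to 538 when 3 DMSO libraries were enough and 2 erlotinib calls were allowed. The share held by ALDH-high DMSO libraries ran from 81.3% to 87.4%, and that by ALDH-low from 59.2% to 68.1%, with 1 library left out. The latter was 72.2% with a score of at least 100 and 79.7% with equal lists. Their difference ran from 17.0 to 23.2 points and was 6.03 with equal lists. The cause was not tested. Motif windows and promoter distances were not run. No paired analysis was possible because the results are counts of calls without a test to pair, and the labels do not say what libraries of 1 letter share. Read depth is unknown and limits every absence of a peak.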
